A study of Homo sapiens with 12 samples.

Results

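The genes described here encode the protein subunits of the mitochondrial respiratory chain and ATP synthase, and 100 of the 57815 genes in the deposited values belong to them. They were chosen by symbol: the protein genes of the mitochondrial chromosome (MT-ND, MT-CYB, MT-CO and MT-ATP), and nuclear genes named NDUFA, NDUFB, NDUFC, NDUFS or NDUFV with a number, SDHA to SDHD, UQCR, CYC1, COX4 to COX8 and ATP5, leaving out assembly factors and the inhibitor ATP5IF1. Of these, 13 were encoded by the mitochondrial genome and 87 by the nucleus. The series holds RNA sequencing of 12 libraries from 3 human lines of non-small cell lung cancer, A549, H460 and H2023, all labelled as positive for a KEAP1 mutation, so the control cells carry it too. A549 and H2023 are labelled lung adenocarcinoma and H460 large cell carcinoma. KEAP1 normally marks the transcription factor NRF2, the product of NFE2L2, for degradation. Each line received control siRNA or NRF2 siRNA and was harvested after 48 h, which made 6 groups of 2 libraries. The 2 control libraries of a line were biological duplicates, whereas the 2 NRF2 siRNA libraries came from different siRNAs, number 28 in library 0 and number 30 in library 1, so the spread between them includes any difference between siRNAs. A549 libraries were made after ribosomal RNA removal and those of H2023 and H460 from polyA RNA, and A549 was grown in high-glucose and the others in low-glucose medium, so line, protocol and medium cannot be told apart and levels of A549 beside those of the other lines are a description with no test. The question addressed was what happened to the subunit genes of both genomes when NRF2 was knocked down in each line.

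The respiratory chain passes electrons from NADH (complex I) and succinate (complex II) through complex III to oxygen at complex IV, and ATP synthase (complex V) uses the proton gradient that the pumping complexes build. Complexes I, III, IV and V are assembled from subunits of both genomes, while complex II is wholly nuclear. Mitochondrial messages are cut out of long polycistronic transcripts made by the mitochondrial RNA polymerase POLRMT with the factors TFAM and TFB2M, and most receive short polyA tails. NRF2, the regulator of antioxidant genes, is a different protein from NRF1, nuclear respiratory factor 1, which with ETS family factors such as GABPA drives many nuclear subunit genes.

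NFE2L2 itself fell in every line, from 38.2 and 30.9 FPKM to 5.31 and 7.84 in A549, from 120 and 118 to 7.74 and 6.8 in H2023, and from 144 and 99.5 to 6.54 and 12.2 in H460. FPKM are fragments scaled to transcript length in kilobases and to the mapped total. They allow levels of different genes to be set side by side, with limits given below for overlapping and near-identical genes. Total counts were not used here. Steps of low FPKM values put the depth of each library between 92.7% and 107.2% of the first control library of its line. Of 6 epithelial markers, all reached 1 FPKM in A549 and H2023 controls and 5 did so in H460 controls, whereas none of 5 lung adenocarcinoma markers (NKX2-1, NAPSA and surfactant genes) reached 1 FPKM in any control library. Summed epithelial markers were 2810 to 3390 FPKM in H2023 controls against 6010 to 6340 with NRF2 siRNA, and 1150 to 1350 against 1760 to 2630 in H460, whereas in A549 they were 6990 to 10200 against 8730 to 10000 and overlapped. Of 8 markers of other cell types, 7 were found. Their sum was 22.7 to 23.6 FPKM in A549 controls against 35.4 to 40.9 with NRF2 siRNA, 47.2 to 54.8 against 59 to 64.2 in H2023, and 47 to 53 against 51.7 to 65.3 in H460, so the groups were separate in A549 and H2023 and overlapped in H460. Most of the sum in A549 and H2023 was a single gene, CD68. It was 14 and 15.6 against 26.6 and 30.7 FPKM in A549. In H2023 it was 48.2 and 43 against 57.7 and 45.7 FPKM, which overlapped. PTPRC was listed at 0 in both NRF2 siRNA libraries of H460. Inside that list ACTA2 (7.92 and 10.6 against 27.5 and 26.2 FPKM) and COL1A1 (1.81 and 2.06 against 5.94 and 5.81 FPKM) rose in H460, while CD68 was 36.6 and 39.2 against 16.5 and 29.2 FPKM (limma adjusted p = 0.141). The part of these markers in the results below was not tested, and in bulk RNA fewer cells of a type and less RNA per cell cannot be told apart.

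Sequences of 2 kinds bear on how the values can be read. MT-ATP8 and MT-ATP6, which encode membrane subunits of ATP synthase, lie on a shared message and overlap by 46 bases (GRCh37, chrM:8527-8572, + strand). A nuclear pseudogene of MT-ATP6, MTATP6P1, matches 45 of these 46 bases at chr1:569076-569121 (GRCh37, + strand). Capitals mark the start codon of MT-ATP6 in the mitochondrial line, and in the nuclear line the base that differs.
MT-ATP8 and MT-ATP6: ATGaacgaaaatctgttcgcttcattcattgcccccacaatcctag
MTATP6P1: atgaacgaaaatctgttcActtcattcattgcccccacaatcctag
Over its whole length MTATP6P1 is 98.5% identical to MT-ATP6, and MTND2P28 and MTCO1P12 next to it are 98.4% and 98.6% identical to MT-ND2 and MT-CO1. MTATP6P1 was listed at 37.8% to 39.4% of the MT-ATP6 value in every H2023 and H460 library and at 16% to 18.4% in A549. MTCO1P12 reached 1211 FPKM in H460 but no more than 13 in H2023. How reads were divided between these near-identical copies is uncertain, so the levels of MT-ATP6, MT-ND2 and MT-CO1 are uncertain as well. MT-ATP8 was listed at 1.48 to 1.58 times MT-ATP6 in A549 and 2.95 to 3.67 times in the other lines, although both coding regions lie on the same RNA.

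The other sequences are promoters of the nuclear genes that passed the test in H460 (described further below). RefSeq windows of 300 bases on GRCh38.p14, from 250 bases before to 50 after a start site, matched 68 of the 87 nuclear genes by symbol. Among those not matched were ATP5F1B, ATP5MC3, ATP5MF, COX6C, CYC1, NDUFA4, SDHC and UQCRB. The windows were searched on both strands for TGACNNNGC, the antioxidant response element that NRF2 binds, GCATGCGC, a core of the NRF1 site, and CCGGAAG, an ETS site. These motifs do not overlap each other. The 250 bases before the start site are shown, with capitals for the matches they hold.
SDHB (chr1:17054033-17054282, - strand): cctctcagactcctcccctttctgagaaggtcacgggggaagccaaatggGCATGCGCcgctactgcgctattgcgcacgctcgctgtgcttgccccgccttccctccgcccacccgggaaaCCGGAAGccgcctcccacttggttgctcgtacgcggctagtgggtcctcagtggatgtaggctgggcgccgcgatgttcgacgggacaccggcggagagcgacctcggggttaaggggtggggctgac
NDUFA13 (chr19:19515975-19516224, + strand): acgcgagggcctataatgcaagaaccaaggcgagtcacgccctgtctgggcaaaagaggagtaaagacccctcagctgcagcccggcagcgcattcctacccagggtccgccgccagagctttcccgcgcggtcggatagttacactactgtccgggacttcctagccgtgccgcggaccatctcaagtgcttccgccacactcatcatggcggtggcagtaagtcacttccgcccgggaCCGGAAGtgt
NDUFB1 (chr14:92121707-92121956, - strand): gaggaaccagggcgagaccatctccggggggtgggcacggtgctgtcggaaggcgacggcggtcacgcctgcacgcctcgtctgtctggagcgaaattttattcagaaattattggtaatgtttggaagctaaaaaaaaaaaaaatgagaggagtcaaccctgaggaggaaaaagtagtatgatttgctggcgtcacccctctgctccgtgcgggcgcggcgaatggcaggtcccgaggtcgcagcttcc
The SDHB promoter holds an NRF1 letter match 200 bases and an ETS match 128 bases before the start site, the NDUFA13 promoter an ETS match 10 bases before it (its antioxidant response element lies in the 50 bases after the start site), and the NDUFB1 stretch none of the 3 motifs. Among 81 windows of nuclear subunit genes, 14.8% held the antioxidant response element, against 13.35% of all 35116 windows and 14.47% of the windows of genes tested in these lines. The NRF1 letters stood in 18.5% of the subunit windows against 3.05% of all and 4.67% of tested genes' windows, and the ETS letters in 27.2% against 10.26% and 16.29%. The antioxidant response element was thus about as frequent as elsewhere, while the other motifs were more frequent in this group. The 12 genes with an antioxidant response element in a window had, under NRF2 siRNA, a median log2 fold change of 0.07 in H460, 0.09 in A549 and -0.09 in H2023, beside -0.06, 0.09 and -0.16 for the tested genes with windows but no such element.

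The mitochondrially encoded genes were abundant in both polyA lines. Together with the rest of the mitochondrial chromosome they made up 11.97% and 18.12% of the FPKM sum in H2023 controls and 8.56% and 13.14% in H460 controls, against 0.89% to 1.56% in the A549 libraries, which were made with another protocol. Of 37 genes on the mitochondrial chromosome, 24 (ribosomal and transfer RNA genes) were listed at 0 in every library. Under NRF2 siRNA the share was 17.35% and 22.76% in H2023 and 20.8% and 25.96% in H460. In H460 the ranges of the groups did not overlap, while in H2023 siRNA 28 lay below a control.

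In H460, both NRF2 siRNA libraries exceeded both controls for 13 of 13 mitochondrial genes. That pattern held for 31.1% of the 13446 genes tested in this line, and the reverse pattern for 31.6%. Mitochondrial messages are cut from long shared transcripts and were measured in the same libraries, so these are not 13 independent observations. The fold changes of the 13 genes ranged from 0.89 to 1.60 on the log2(FPKM + 1) scale, with a median of 1.17, beside a median of -0.01 over all genes tested. Over 13 alternatives, including each library left out, all 13 stayed above 0, but their size moved. MT-ND3 ran from 0.463 to 1.324, MT-ND2 from 0.492 to 1.331 and MT-ND6 from 1.17 to 2.035. No mitochondrial gene passed an adjusted p of 0.05 in limma, and 7 of 13 were higher at an unadjusted p under 0.05. Among all genes tested in H460, 6.86% were called lower and 7.12% higher, and 2290 of 13446 were higher at an unadjusted p under 0.05.

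Among the complex I genes, MT-ND5 and MT-ND6 had the highest fold changes. MT-ND5, a proton-pumping core subunit, was 1655 and 2178 FPKM in H460 controls, 4154 with siRNA 28 and 7308 with siRNA 30. MT-ND6, the only message transcribed from the opposite strand, was 1686 and 2411 in controls, 4537 with siRNA 28 and 8267 with siRNA 30. Neither gene passed the test, although siRNA libraries stood well above controls: the log2 fold changes were 1.54 for MT-ND5 (SE 0.415, limma adjusted p = 0.0565) and 1.60 for MT-ND6 (SE 0.438, limma adjusted p = 0.0585). After rescaling without the mitochondrial chromosome both passed, and so did MT-CO1 (limma adjusted p = 0.0311, 0.0294 and 0.0437 for MT-ND6, MT-ND5 and MT-CO1). The MT-ND6 value was 1.02 to 1.14 times that of MT-ND5, its neighbor on the chromosome (chrM:12337-14148 and chrM:14149-14673 in GRCh37), in each H2023 and H460 library, and 0.40 to 0.61 times in A549. The libraries were strand-specific, but whether strand was used when fragments were counted is not given in the sources used here, and without it reads from opposite strands cannot be told apart.

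The remaining subunits of complex I showed smaller differences. MT-ND1 was 2842 and 4700 FPKM in H460 controls against 7378 and 9978 with siRNA 28 and 30, MT-ND4 was 6822 and 7833 against 12770 and 18860, and MT-ND4L was 3580 and 5324 against 7706 and 12020. MT-ND2 (1891 and 3382 against 3968 and 5705) and MT-ND3 (1730 and 2895 against 3085 and 5605) had the narrowest gaps between groups. For these 5 genes the log2 fold changes ran from 0.89 for MT-ND3 to 1.23 for MT-ND1.

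MT-CYB, the cytochrome b of complex III, was 1698 and 2554 FPKM in H460 controls, 4084 with siRNA 28 and 4963 with siRNA 30 (log2 fold change 1.11, SE 0.37, limma adjusted p = 0.0922). The catalytic subunits of complex IV behaved alike: MT-CO1 was 5437 and 7485 against 13520 and 20060, MT-CO2 was 7117 and 11010 against 15760 and 28520, and MT-CO3 was 4300 and 7587 against 11380 and 15410. In complex V, MT-ATP6 was 5437 and 8181 against 12460 and 18100, and MT-ATP8 was 19500 and 27490 against 43250 and 61490. For each of the 13 genes the siRNA 30 library was the highest of the 4.

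**Figure D1:**
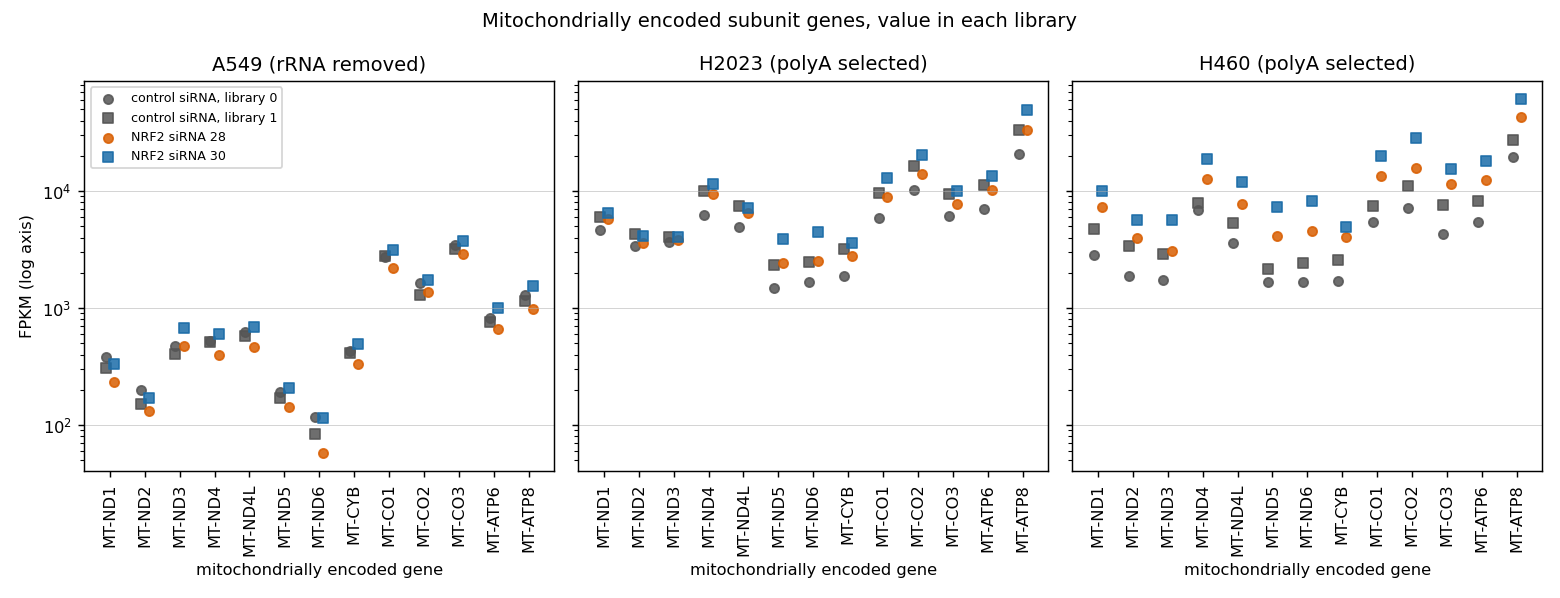
FPKM on a log axis of the 13 mitochondrially encoded genes in each library of A549, H2023 and H460; gray marks are the 2 control libraries, orange is NRF2 siRNA 28 and blue is NRF2 siRNA 30. In H460 both NRF2 siRNA marks stand above both controls for all 13 genes, whereas in H2023 they do so for 2 genes and in A549 for none.

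In H2023 the groups overlapped for most of the mitochondrial genes. All 13 fold changes were above 0 with a median of 0.38 and a range of 0.02 to 0.72, but the groups did not overlap for only 2 genes, MT-ND5 (1488 and 2346 FPKM against 2425 and 3898) and MT-ND6 (1654 and 2459 against 2501 and 4439). Over all genes tested in H2023, 27% had both siRNA libraries above both controls, a larger share than 2 of 13. The control libraries were far apart themselves, for example 5833 and 9612 for MT-CO1, with siRNA 28 at 8935 between them and siRNA 30 at 12870. For MT-CO1 the log2 fold change was 0.52 (SE 0.35, limma adjusted p = 0.515). The median over the 13 genes was 0.04 without control library 0 and 0.72 without control library 1.

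In A549 the mitochondrial genes lay on both sides of 0, with 9 of 13 below it and a median of -0.07. MT-CO3 was 3446 and 3190 FPKM in controls, 2897 with siRNA 28 and 3720 with siRNA 30. MT-ND1 (382 and 309 against 231.6 and 334.7) had the lowest fold change at -0.30 and MT-ND3 (475 and 407.6 against 471.2 and 681.3) the highest at 0.36. For none of the 13 genes did both siRNA libraries lie on the same side of both controls, while over all genes tested in A549 both lay below for 20.5% and above for 25.2%. Without siRNA 28 the median turned to 0.20.

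Within a library, the ratio of the geometric mean of FPKM + 1 over the 13 mitochondrial genes to that over the 79 nuclear genes tested in every line depends very little on how the library was scaled. In H460 it was 30 and 45.4 in controls, 68.7 with siRNA 28 and 109 with siRNA 30, 2.34 times as high with NRF2 siRNA on average over the log values. No test was made of this ratio. In H2023 it was 38.3 and 70.7 in controls, 60.9 with siRNA 28 and 94.9 with siRNA 30. In A549 it was 5.24 and 5.03, then 3.78 and 5.86. The groups were separate in H460 alone, where the change of 1.23 (log2) exceeded the gap of 0.60 between controls and of 0.66 between siRNAs. In H2023 the change was 0.55 with a gap of 0.88 between controls. In H460 the change from the mean of the controls was 1.56 with siRNA 30 and 0.90 with siRNA 28, but control library 1 was also above control library 0, and siRNA and library number cannot be told apart. The nuclear geometric mean was 117 to 121 FPKM in all 4 H460 libraries, so in this line the ratio moved with its mitochondrial side. Leaving out MT-ATP6, MT-ND2 and MT-CO1, the genes with abundant nuclear copies, gave a change of 1.24 in H460.

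**Figure D2:**
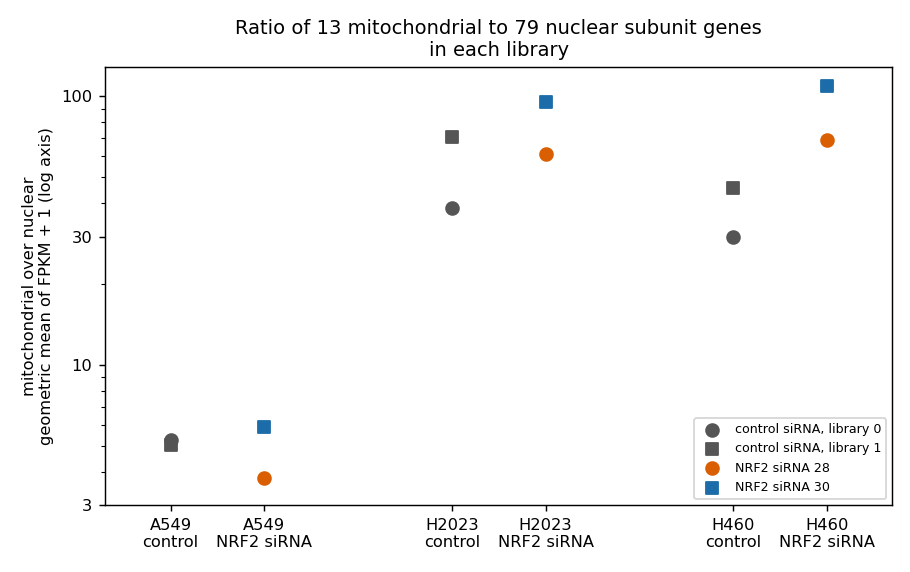
Ratio of the geometric means of FPKM + 1 over 13 mitochondrial and 79 nuclear subunit genes, on a log axis, for each library of the 3 lines under control or NRF2 siRNA. In H460 the NRF2 siRNA libraries (68.7 and 109) lie above the controls (30 and 45.4), while in H2023 and A549 the groups overlap.

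Of the 87 nuclear genes, 79 were tested in A549, 81 in H2023 and 80 in H460, after a filter of at least 1 FPKM in at least 2 of a line's 4 libraries. The most abundant over all libraries were ATP5MF, ATP5F1B and ATP5MK of ATP synthase, UQCRB of complex III and COX6B1 of complex IV. ATP5MF was 1044 and 1022 FPKM in H460 controls and 1155 and 1221 with NRF2 siRNA. ATP5F1B, the catalytic beta subunit, was 1024 and 743.8 against 553.8 and 623.1. No nuclear gene exceeded 1221 FPKM in any library, below the lowest value of any mitochondrial gene in H2023 and H460 (1488).

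In A549 and H2023 no nuclear gene was called in limma. At an unadjusted p under 0.05, 2 were higher in A549 (NDUFB1 and ATP5F1D) and 2 lower in H2023 (COX7A2 and COX7B2), against 1150 of 13898 higher in A549 and 939 of 14059 lower in H2023 over all genes. Over all genes tested, 0.554% were called lower and 0.122% higher in A549, and 0.583% and 0.327% in H2023. In A549, 63 of 79 nuclear genes had fold changes above 0 with a median of 0.09, beside 0.02 over all genes. After rescaling without the mitochondrial chromosome, 36 of 79 did and the median was -0.02 (all genes -0.07). The mitochondrial share was only 0.89% to 1.56% in A549, and the rescaling divides by the whole remaining FPKM sum. In NRF2 siRNA library 0 of A549 a small set of the most abundant genes held 44.3% of the FPKM sum. The other A549 libraries had 35.2% to 36.9%. The part of this in the shift was not tested. In H2023, 70 of 81 lay below 0 with a median of -0.15 beside 0.02 over all genes, and after that rescaling 52 did, with a median of -0.053 beside 0.111 over all genes. Without control library 0, 39 of the 81 lay below 0 and the median was 0.006, and without control library 1, 76 did and it was -0.327. Protein-coding genes with transcripts under 800 nt tested in H2023 had a median of -0.14, beside -0.17 for the nuclear subunit genes of that length. Longer protein-coding genes had 0.03, beside -0.13 for the longer subunit genes. In A549 the count above 0 was 45 without control library 1. Both siRNA libraries lay above both controls for 23.9% of the 92 subunit genes tested in A549 (25.2% of all genes) and below them for 4.35% (20.5% of all genes). In H2023 both lay below for 22.3% of 94 (22% of all genes) and above for 3.19% (27% of all genes).

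In H460 the nuclear genes were mixed. Both siRNA libraries lay below both controls for 28 of 80 (31.6% of all genes) and above them for 25 of 80 (31.1% of all genes), so both counts were near the share over all genes. The median of the 80 was -0.07 as deposited and 0.09 after rescaling without mitochondrial genes, which moved the median of all genes from -0.01 to 0.13 and the split of calls from 922 lower and 957 higher to 594 and 1200. The sign of the nuclear median thus turned with a scaling that moves all genes alike, and it lay below the median of all genes in both scalings. Called were SDHB, lower, and NDUFA13 and NDUFB1, higher, or 1 and 2 of the 93 subunit genes tested, against 6.86% and 7.12% of all genes.

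SDHB, the iron-sulfur subunit of complex II (GRCh37 chr1:17345159-17380527), was 74.9 and 80.64 FPKM in H460 controls, 45.11 with siRNA 28 and 43.06 with siRNA 30. It was lower by a similar amount with each siRNA, and the log2 fold change was -0.80 (SE 0.205, limma adjusted p = 0.0496). NDUFA13, an accessory subunit of complex I also known as GRIM-19 (chr19:19626545-19639863), was 122.8 and 130.5 against 224.2 and 241.5, a log2 fold change of 0.87 (SE 0.21, limma adjusted p = 0.0433). NDUFB1, a small accessory subunit of the complex I membrane arm (chr14:92582466-92588261), was 64.95 and 82.34 against 128.1 and 153.3, a log2 fold change of 0.93 (SE 0.23, limma adjusted p = 0.0486). These 3 calls lay close to the threshold: over 13 alternatives SDHB passed in 5, NDUFA13 in 9 and NDUFB1 in 6, with no change of direction. After rescaling without the mitochondrial chromosome SDHB was at -0.66 (limma adjusted p = 0.111). Their adjusted p-values rose to 0.29, 0.315 and 0.346 when control library 0 was left out, and to 0.297, 0.249 and 0.201 when control library 1 was, but with either left out only 1 of 13446 genes was called at all. The fold changes ran from -0.857 to -0.657 for SDHB, from 0.82 to 1.028 for NDUFA13 and from 0.76 to 1.098 for NDUFB1.

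By complex, the H460 medians of nuclear genes were -0.02 for complex I (36 genes), -0.28 for complex II (4), 0.01 for complex III (10), 0.04 for complex IV (13) and -0.13 for complex V (17). In complex II, all 4 genes had negative fold changes, but SDHC differed between siRNAs: it was 44 and 50.63 FPKM in controls, 68.65 with siRNA 28 and 27.83 with siRNA 30. At an unadjusted p under 0.05, 7 of the 80 nuclear genes were lower and 10 higher, smaller shares than the 2248 and 2290 of 13446 over all genes. The lower ones were ATP5MC1 (-0.84), SDHB, NDUFA9 (-0.66), CYC1 (-0.63), ATP5PB (-0.57), ATP5F1C (-0.55) and ATP5MC3 (-0.53). The higher ones were NDUFB1, NDUFA13, NDUFB11 (0.80), ATP5F1E (0.75), NDUFA3 (0.73), NDUFA4 (0.72), NDUFC2 (0.63), COX6C (0.62), COX7A2 (0.58) and NDUFB2 (0.52). Apart from SDHB, NDUFA13 and NDUFB1, these genes were picked after their values were seen. ATP5MC1 and ATP5MC3 encode the c-subunit of the proton ring, as does ATP5MC2, which was 394 and 383.2 FPKM in controls against 410.2 and 547.4 (0.29).

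Over 18 nuclear genes for redox and catalytic subunits (7 of NDUFS and NDUFV, SDHA to SDHD, CYC1, UQCRFS1 and the F1 part of ATP synthase), 15 had fold changes below 0 in H460 with a median of -0.27, beside 0.04 over the other 61 tested genes that are not tissue-restricted forms. By transcript length, the 40 nuclear genes under 800 nt had a median of 0.20 and the 40 longer ones -0.21, while all protein-coding genes under 800 nt tested in H460 had a median of 0.02. These splits were not seen in the other lines. The redox and catalytic genes had medians of -0.11 in H2023 (other genes -0.15) and 0.07 in A549 (0.10). Nuclear genes under 800 nt had medians of -0.17 in H2023 (longer ones -0.13) and 0.09 in A549 (0.12). The length and the role of a subunit move together here, and their parts were not tested.

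**Figure D3:**
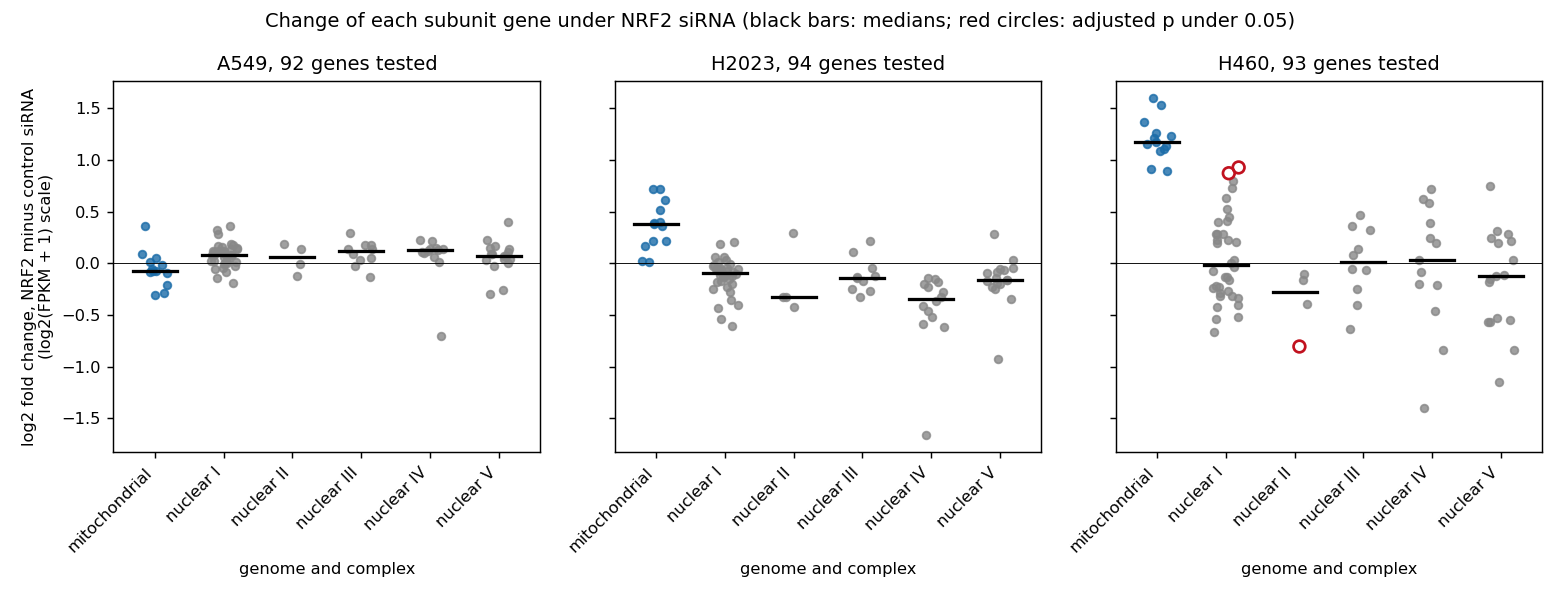
Log2 fold change of each subunit gene (NRF2 minus control siRNA, log2(FPKM + 1) scale) in A549, H2023 and H460, by genome and complex; points are genes, black bars medians and red circles genes with a limma adjusted p under 0.05. The mitochondrial median is -0.07 in A549, 0.38 in H2023 and 1.17 in H460, and only SDHB, NDUFA13 and NDUFB1 in H460 are circled.

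The average effect over the lines was tested in a fit of all 12 libraries, in which 14.5% of 11571 genes were called lower and 15.2% higher. Of 92 subunit genes tested, 3.26% were called lower (SDHB, ATP5MC1 and CYC1) and 6.52% higher (NDUFB1, NDUFB11, NDUFA13, NDUFB3, MT-ND5 and MT-CO1), some of them named only once their values were known. SDHB was 102.8 and 92.14 FPKM in A549 controls against 90.94 and 88.11, and 94.65 and 77.81 in H2023 controls against 75.49 and 61.43. Its siRNA values thus lay below both controls in every line, and its average log2 fold change was -0.42 (SE 0.09, limma adjusted p = 0.00812). ATP5MC1, a c-subunit of the proton ring, was 156.8 and 159.4 against 139.6 and 124.9 in A549, 141.1 and 123.1 against 111.3 and 119.6 in H2023, and 162.1 and 214.4 against 112 and 96.09 in H460. It too lay below both controls in every line, with an average of -0.43 (SE 0.10, limma adjusted p = 0.00979). SDHB and ATP5MC1 stayed past the threshold in 17 of 17 alternatives, including each library left out, and CYC1 in 14.

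Among the higher calls, NDUFB11, an accessory subunit of complex I, was 71.87 and 80.38 FPKM in H460 controls against 112.9 and 156.1 with siRNA, and averaged 0.38 (SE 0.11, limma adjusted p = 0.0242), past the threshold in 11 of 17 alternatives. NDUFB3 averaged 0.27 and passed in 6, NDUFB1 averaged 0.39 and passed in 8, and NDUFA13 averaged 0.34 and passed in 14. In H2023 the log2 fold changes were smaller than in H460 for NDUFB11 (0.06 against 0.80), NDUFB1 (-0.12 against 0.93) and NDUFA13 (0.02 against 0.87). MT-ND5 averaged 0.73 (SE 0.20, limma adjusted p = 0.0211) and passed in 12, and MT-CO1 averaged 0.60 and passed in 9. In A549 these genes had log2 fold changes of -0.07 (MT-ND5) and -0.08 (MT-CO1), so the averages do not describe each line.

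The lines were then compared directly. The effect differed between lines for 2.51% of the 11571 genes and for none of the 92 subunit genes in limma, with a smallest adjusted p of 0.0844 for NDUFA13. For the mitochondrial genes the smallest was 0.116, so their larger fold changes in H460 were not shown to differ from the other lines. When H460 was tested with the spread taken from all 12 libraries, 9 subunit genes were called lower (16.8% of all genes) and 22 higher (17.3%), among them 12 of the 13 mitochondrial genes, MT-ND3 being the exception. That fit assumes that H460 libraries vary as those of the other lines.

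Some nuclear genes were lower with siRNA 30 than with siRNA 28 in every line and were singled out after their values were seen. COX7C, a small subunit of complex IV (chr5:85913745-85916779), was 237.5 and 200.8 FPKM in A549 controls, 252.2 with siRNA 28 and 70.69 with siRNA 30. In H2023 it was 106.1 and 89.43, then 85.82 and 10.1, and in H460 135.3 and 142.2, then 140.5 and 18.9. With siRNA 28 it stayed near the controls, while with siRNA 30 it was the lowest of the 4 libraries in each line. ATP5MK, a small membrane subunit of ATP synthase (chr10:105148798-105156249), was 623.4 and 551.4 against 608 and 373.3 in A549, 512.4 and 501.6 against 440.3 and 160.9 in H2023, and 607.6 and 704 against 581 and 148.4 in H460. NDUFS4, an accessory subunit of complex I, was 65.61 and 56.87 against 67.54 and 42.51 in A549, 43.54 and 33.27 against 33.67 and 17.89 in H2023, and 35.64 and 38.78 against 34.55 and 18.48 in H460. The same order was seen for each of these genes, with siRNA 30 lowest in all 3 lines.

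In the 6 NRF2 siRNA libraries with line as a covariate, COX7C differed by -2.54 (SE 0.24) and ATP5MK by -1.37 (SE 0.25) between siRNA 30 and 28, with limma adjusted p-values of 0.123 and 0.131. No gene of 15716 was called in that fit (0% in each direction), and at an unadjusted p under 0.05, 10 subunit genes were lower and 2 higher, against 1741 and 1112 of all genes. In a fit of all 12 libraries, 1.74% of genes were called lower and 0.649% higher with siRNA 30, and 5 subunit genes were lower: COX7C (limma adjusted p = 0.00193), ATP5MK (0.02), NDUFS4 (0.0254), SDHC (0.0307) and NDUFA7 (0.0424). These counts make the NRF2 siRNA values of the 5 genes an average of unlike libraries: over both siRNAs COX7C had log2 fold changes of -1.67 in H2023, -1.40 in H460 and -0.70 in A549, none of them past the threshold (smallest limma adjusted p = 0.282). The mitochondrial genes leaned the other way, with all 13 higher with siRNA 30 by a median of 0.50 and none called. Over all genes, 7433 of 15716 were higher with siRNA 30, with a median of -0.02. As siRNA 30 was always library 1, siRNA and library number cannot be told apart. The mitochondrial to nuclear ratio was also higher in control library 1, by 0.88 (log2) in H2023 and 0.60 in H460, and lower by 0.06 in A549.

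**Figure D4:**
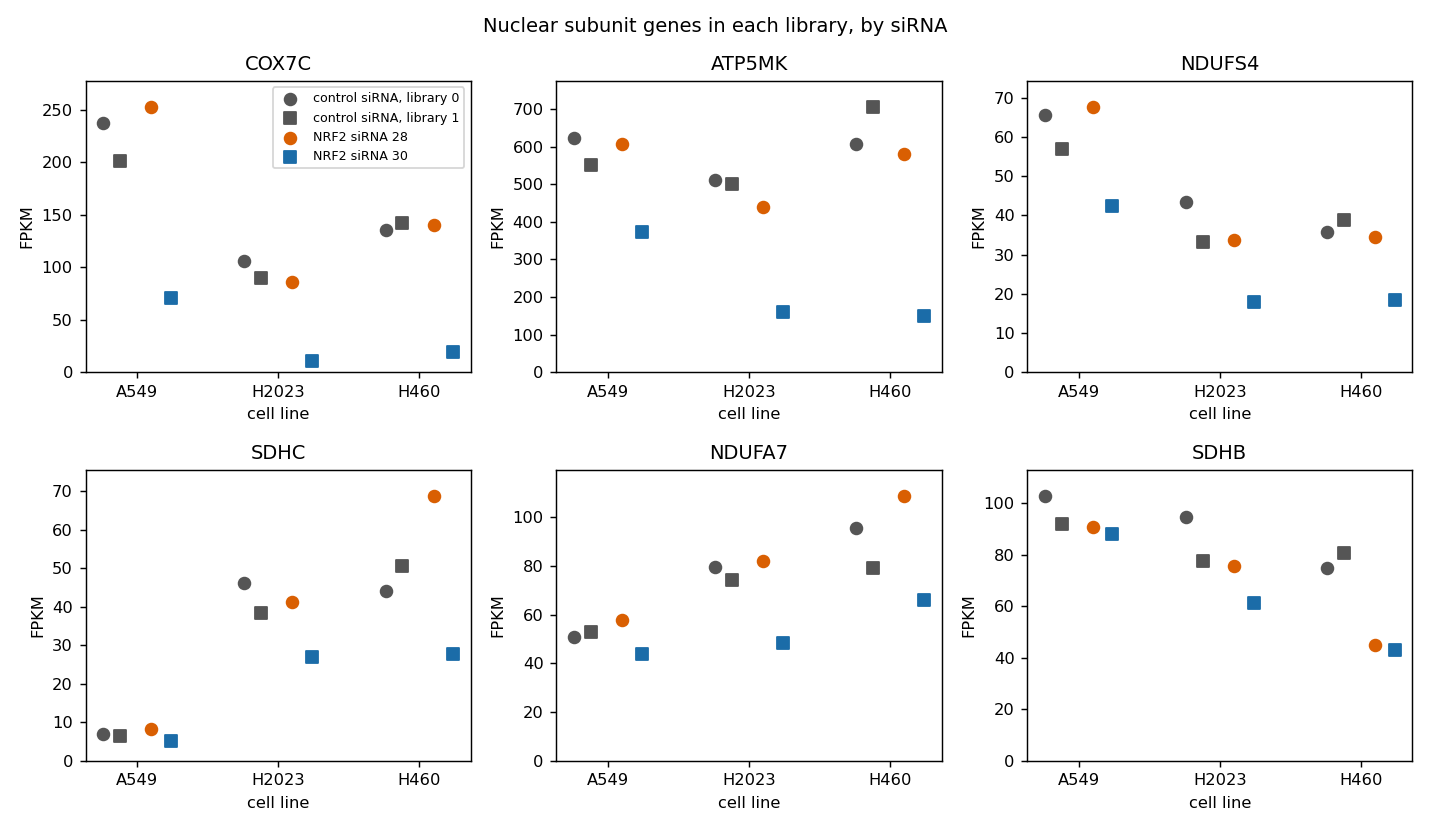
FPKM of COX7C, ATP5MK, NDUFS4, SDHC, NDUFA7 and SDHB in each library; gray marks are controls, orange is NRF2 siRNA 28 and blue is NRF2 siRNA 30. In the first 5 genes siRNA 30 is the lowest of the 4 libraries in each line (COX7C in H460, 18.9 against 135.3 and 142.2), whereas SDHB is low with both siRNAs in H460 (45.11 and 43.06).

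Complex IV carries subunits with tissue-restricted forms, and their levels described these cells. The forms known from muscle, testis or lung (COX4I2, COX6A2, COX6B2, COX7A1 and COX8C) and the ATP5MGL gene stayed under 1 FPKM in all 12 libraries and were tested in no line. Their general partners were abundant, for example COX4I1 at 256.6 to 419.9 and COX6A1 at 160.3 to 263 FPKM over all libraries. COX7B2 was an exception in H2023: it was 16.71 and 13.92 FPKM in controls and 11.1 and 9.657 with NRF2 siRNA, but at most 0.28 in A549 and near 0 in H460. Its partner COX7B was 148.2 and 92.28 FPKM in H2023 controls, so the restricted form remained the lesser. NDUFA4L2, a paralog of NDUFA4 known as a hypoxia-induced gene, ranged from 0.56 to 4.57 FPKM against 39.42 to 105.3 for NDUFA4.

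Under control siRNA, H2023 and H460, which share the polyA protocol, differed in many subunit genes. Of 94 tested, 21.3% were called higher in H460 (24.6% of all 14039 genes) and 9.57% higher in H2023 (24.2% of all genes). After rescaling without mitochondrial genes the counts went from 20 and 9 to 11 and 18 and over all genes from 3453 and 3404 to 2495 and 4190. This scaling moves every gene of a library alike, and the median difference (H2023 minus H460) was -0.03 for the subunit genes and for all genes as deposited, and 0.19 and 0.17 after rescaling. With any 1 of the 4 control libraries left out, the median difference of the subunit genes ran from -0.172 to -0.014, beside -0.056 to -0.014 over all genes. Among those higher in H460, picked for their size of difference, were ATP5MC3, at 260.9 and 266 FPKM against 115.9 and 81.64 in H2023 (log2 difference H2023 minus H460 -1.43, SE 0.19, limma adjusted p = 0.00231), and NDUFS1, the largest redox subunit of complex I, at 108.6 and 86.03 against 46.01 and 40.75 (-1.14, SE 0.16, limma adjusted p = 0.00293). Among those higher in H2023 were UQCRB, at 712.7 and 528.2 FPKM against 290.7 and 273.7 (1.12, SE 0.19), and COX6C, at 180.5 and 118.7 against 69.85 and 64.66 (1.11, SE 0.21). The 9 genes include COX7B2, which was listed at 0 or close to it in H460 and passed the filter only through H2023, so its call was fixed by the filter. No mitochondrial gene was called: 12 of 13 were higher in H2023, by a median of 0.41, with a smallest limma adjusted p of 0.0757 for MT-ND3, and 1 had an unadjusted p under 0.05.

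**Figure D5:**
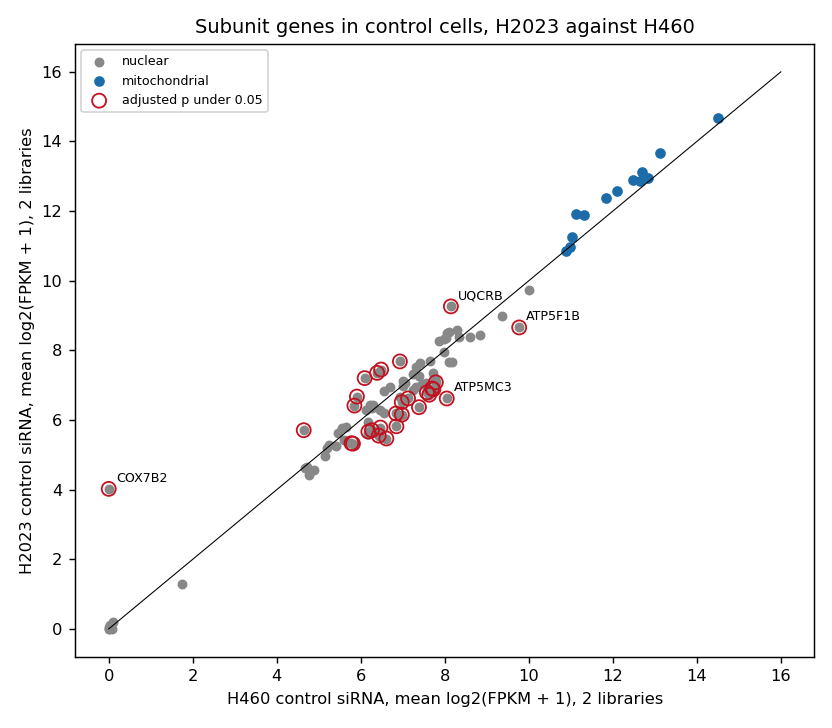
Mean log2(FPKM + 1) of each subunit gene over the 2 control libraries of H460 (x axis) and of H2023 (y axis); gray points are nuclear and blue points mitochondrial genes, red circles have a limma adjusted p under 0.05, and the line marks equal values. COX7B2, listed at or close to 0 in H460 and tested only through its H2023 level, lies far above the line, ATP5MC3 and ATP5F1B below it, and no mitochondrial gene is circled.

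Genes that serve the chain but are not part of it were counted from lists chosen with earlier results of these data known. Of 51 assembly factors tested in H460, 5 were called lower and 1 higher, with a median of -0.36 beside -0.01 over all genes, and 16 were lower and 5 higher at an unadjusted p under 0.05. Of the 13446 genes tested in this line, 6.86% were called lower and 7.12% higher, and 2248 and 2290 had an unadjusted p under 0.05. COA6, an assembly factor of complex IV, was 173 and 197 FPKM in H460 controls against 53.8 and 48.1 with NRF2 siRNA (log2 fold change -1.84, limma adjusted p = 0.0132), and 59.7 and 59.4 against 29.5 and 23.7 in H2023 (-1.14, limma adjusted p = 0.0712). NDUFAF4, which helps to build complex I, was 23.3 and 23.7 against 5.63 and 5.68 in H460 (-1.88, limma adjusted p = 0.0156). Both genes lay at a similar level with either siRNA. ATPAF1 (-1.44), an ATP synthase assembly factor, and NDUFAF2 (-1.01) were also called lower. ATPAF1 lay below both controls with each siRNA in A549 (33.5 and 33.2 against 24 and 14.4 FPKM) and in H2023 (67.2 and 60.9 against 37.8 and 17.6). The study lists it among the genes lowered by NRF2 knockdown in all 3 lines. In A549 and H2023 none of the 51 was called in limma (3 lower and 1 higher, and 7 lower and 1 higher, at an unadjusted p under 0.05). Over all genes the called shares were 0.554% and 0.122% in A549 and 0.583% and 0.327% in H2023, and the unadjusted counts were 694 and 1150 of 13898 and 939 and 1439 of 14059.

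Of 36 genes for mitochondrial transcription, RNA handling and translation, 5 were called lower and 1 higher in H460 (6.86% and 7.12% of all genes), with a median of -0.64. TFAM, which packages mitochondrial DNA and activates its promoters, was 42.5 and 49.7 FPKM in controls against 22.7 with siRNA 28 and 11.4 with siRNA 30 (log2 fold change -1.45, limma adjusted p = 0.0413). TFB2M, the transcription factor that works with POLRMT, was 14.7 and 18.6 against 5.47 and 7.34 (-1.26, limma adjusted p = 0.0357). PNPT1, the polynucleotide phosphorylase that takes part in mitochondrial RNA decay, was 36 and 31.7 against 15.5 and 10 (-1.37, limma adjusted p = 0.031), and SLIRP, an RNA-binding protein that stabilizes mitochondrial messages, was 175 and 159 against 87.3 and 82.1 (-0.97, limma adjusted p = 0.0342). All 4 lay below both controls with each siRNA. In A549 and H2023 none of the 36 was called in limma (1 lower, and 1 lower and 2 higher, at an unadjusted p under 0.05), against 694 lower and 1150 higher of 13898 and 939 lower and 1439 higher of 14059 over all genes.

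Among 11 tested regulators of nuclear subunit genes in H460, PPRC1, a coactivator of the PGC-1 family, was called lower (49.6 and 44 FPKM against 23 and 21.7, log2 fold change -1.03, limma adjusted p = 0.0322). NRF1 was 12.4 and 13.8 against 6.21 and 6.67 (-0.92, limma adjusted p = 0.0562). None of 17 TCA cycle genes was called in limma in any line, with 6 lower and 0 higher in H460 at an unadjusted p under 0.05 (2248 and 2290 of all 13446 genes), and citrate synthase, CS, was 289 and 225 against 148 and 124 (-0.91, limma adjusted p = 0.0544). Of 22 genes for electron carriers and other dehydrogenases that feed the chain, 2 were called lower in H460 (6.86% of all genes): PDSS1 (-1.98) and COQ8A (-1.55), both of coenzyme Q synthesis. The other genes picked by smallest p from these lists were called in no line, and lay below 0 in H460. These were PPARGC1B (-0.93), GABPA (-0.58), IDH3A (-0.999), PDHA1 (-0.68), SUCLG2 (-0.07), CYCS (-0.62) and GPD2 (-1.09). In H2023, PPARGC1B (0.36), PDHA1 (0.02), SUCLG2 (0.53) and CYCS (1.06) were above 0, and GABPA, IDH3A and GPD2 below. In the fit of the average effect, 12 assembly factors, 15 genes of mitochondrial gene expression, 2 regulators, 2 TCA cycle genes and 5 carrier genes were called lower, and 3, 2, 0, 1 and 1 higher, against 14.5% and 15.2% of all genes.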

How the data were processed

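RNA sequencing values of 12 libraries were used as deposited. The authors gave FPKM per gene and library; their processing notes list STAR 2.5.3a, Cuffnorm, HTSeq, DESeq2 and hg19, while the study's methods describe TopHat and Cufflinks on hg19, and which of these made the values is not settled here. Deposited tables of the authors' own comparisons held log2 fold changes and p-values and were not used. FPKM hold no counts, so limma 3.58.1 (R 4.3.3, trend and moderated variances) was run on log2(FPKM + 1) over all genes with at least 1 FPKM in at least 2 of a line's 4 libraries, with Benjamini-Hochberg adjustment at 0.05, and fold changes of low genes are understated. Values under 1e-06 (12710) were read as 0, and 96.1% of gene identifiers matched a symbol. The fits were tested on simulated data. Members and lists were chosen with earlier results of these data known. Genes were named by rule: all mitochondrial genes, nuclear genes called in a line, the 5 most abundant and the 5 with the largest mean change. Tissue-restricted forms were named too, and the 4 genes with the smallest p of each list of genes serving the chain. Further genes were named after their values were seen. The comparison of siRNA 30 with 28 was added after seeing the data. Rescaling means dividing by the FPKM sum without the mitochondrial chromosome. With 2 libraries a group, an exact permutation test cannot go below p = 0.333. Promoter windows were RefSeq's. Python 3.11.15 with pandas 2.3.3 and matplotlib 3.10.9 made the summaries and figures.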

Additional observations from a re-analysis of the deposited data

How the results depend on the processing

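Of the recomputed values that answer a comparison, 208 stayed within their limits and 52 moved; of the values of single genes, 485 kept their direction and side of the threshold, 41 newly passed, 64 no longer passed and 3 reversed. The cause of these changes was not tested. After rescaling, the nuclear median was -0.015 in A549 and 0.086 in H460, H460 had 0 subunit genes lower and 6 higher, and the controls had 18 genes higher in H2023 and 11 higher in H460. In H460, median centering gave 0 lower, trimmed mean scaling 1 higher, a pseudocount of 0.1 gave 0 lower and 1 higher, and no filter 0 and 0. No trend gave 0 lower and 3 higher, all mitochondrial, so SDHB, NDUFA13 and NDUFB1 were no longer called. All 12 libraries in the fit gave 9 lower and 22 higher. Without the filter the average effect had 1 gene higher, and the controls 2 higher in H2023 and 3 higher in H460. In the fit of all 12 libraries 5 genes were lower with siRNA 30. Leaving out each library in turn gave, in A549, 0 to 1 gene lower (COX7C without siRNA 28) and mitochondrial medians of -0.34 to 0.205, in H2023 0 to 3 lower and medians of 0.042 to 0.723, and in H460 0 to 4 lower and 0 to 6 higher. It gave 2 to 7 lower and 1 to 15 higher for the average effect, 0 to 1 for the difference between lines, and 1 to 5 higher in H2023 and 1 to 14 in H460 for the controls. Without siRNA 28 or siRNA 30, the log2 fold change of COX7C ran from -1.613 to 0.207 in A549 and from -2.812 to 0.019 in H460, and that of ATP5MK from -0.65 to 0.052 in A549, the value without siRNA 30 being the one above 0. Leaving out either H460 control left 1 gene called of all tested.

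Same-numbered libraries deviated together with correlations of 0.312 in H2023, 0.163 in H460 and -0.032 in A549, so the numbers were not taken to pair them. With a replicate block, H2023 had 2 subunit genes higher (MT-ND5 and MT-ND6, limma adjusted p = 0.0397 and 0.0447), H460 had 2 lower and 5 higher, and the average effect had 14 higher. Of those 14, 10 were mitochondrial, against 2 without the block, while 1858 of 11571 genes were called higher over all, against 1763.

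Depth was known only relative to other libraries, and with 2 libraries a group small differences could not be detected.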
